A study of Mus musculus with 24 samples.

Results

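The genes described here are 42 genes of the cell cycle and DNA replication that were chosen by name, with earlier results of these data known. For each gene the probe with the highest mean signal over the 24 arrays was taken. Of the 42 genes, 37 had a probe bright enough to be tested, out of 21365 tested genes in all, and 5 had not.

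Gene expression was measured with 1 array per mouse in livers of male mice, with 6 mice in each of 4 groups. The question was how 24 h without food changes liver transcripts, and whether the change depends on p110α, the catalytic subunit of phosphoinositide 3-kinase that Pik3ca encodes and that acts downstream of the insulin receptor. The groups p110aLWT_Fed and p110aLWT_Fasted (LWT) held mice with floxed Pik3ca alleles and no Cre. In the groups p110aLKO_Fed and p110aLKO_Fasted (LKO), Cre driven by the albumin promoter removes exons of the floxed gene in hepatocytes, while the other liver cells keep it. All mice were 12 weeks old and were killed at Zeitgeber time (ZT) 16, the fasted ones after 24 h without food and the fed ones with food at will. The replicates were separate mice.

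A cell that divides passes from G1 into S phase when D-type cyclins with Cdk4, and then cyclin E with Cdk2, release E2F transcription factors from the retinoblastoma proteins. E2F targets include the Mcm helicase subunits, which are loaded on replication origins by Cdc6 and Cdt1, and the enzymes that make DNA precursors. Later genes, for mitosis, are switched on with Foxm1 and include cyclin B, the Aurora and Polo kinases and the anaphase-promoting complex activators. Most hepatocytes of an adult liver rest outside the cycle, and many are polyploid. Transcripts of this kind in whole liver therefore come from few dividing cells, from resting cells or from both, and in such bulk RNA fewer cells of a type and less RNA per cell cannot be told apart.

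On the 24 arrays, 54.7 to 63% of spots were well above background, and no spot was saturated. Each array was weighted by how closely it followed the fit over all probes. The lowest weights were 0.315 (LWT_Fed replicate 3), 0.353 (LKO_Fasted replicate 4) and 0.435 (LWT_Fasted replicate 2). LKO_Fasted replicates 1 and 2, with weights of 0.815 and 0.752, were left out together in 1 alternative, added after seeing the data. Signals are given as normalized log2 intensity, as mean ± SD over 6 mice, and levels of different genes are not compared, since each probe binds with its own strength. Pik3ca had a signal of 12.54 ± 0.26 in LKO_Fed and of 11.91 ± 0.21 in LWT_Fed (n = 6 each). It was 12.26 ± 0.19 in LKO_Fasted and 12.28 ± 0.14 in LWT_Fasted (n = 6 each). The transcript was thus not lower on the arrays labelled LKO (fed 0.58, SE 0.112, adjusted p = 0.00133; fasted -0.02, SE 0.119, adjusted p = 0.925; limma), and the place of its probe relative to the deleted exons was not examined, so this gene does not check the genotype labels.

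Most of the 42 genes were detected in every group. In LWT_Fed, 36 of the 42 genes cleared the scanner's background test (well above background) on at least 5 of 6 arrays, and 32 did so in LWT_Fasted, 33 in LKO_Fed and 34 in LKO_Fasted, with 31 genes doing so on all 24 arrays. The 5 untested genes were Ccne2 (cyclin E2, well above background on 2 of 24 arrays), the phosphatases Cdc25b (10 arrays) and Cdc25c (1 array), which activate Cdk1, and the spindle checkpoint genes Bub1 (1 array) and Bub1b (7 arrays). Among the tested genes, Cdk1, Foxm1 and Aurkb entered through LWT_Fed alone, a choice that leans towards lower values in the other groups, and Cdc45 through LKO_Fasted alone.

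Food withdrawal lowered more of these genes in LWT than it raised. The test was limma's moderated test with Benjamini-Hochberg adjustment over all probes, and a gene was called when the adjusted p was at most 0.05 and the fold change above 1.5. In LWT, 15 of the 37 tested genes were called lower with fasting, where 5.24% of all genes were, and 1 was called higher, where 4.81% of all genes were. Without the fold minimum, 23 were lower, where 21.9% of all genes were, and 3 higher, where 20.1% of all genes were. Leaving out the 4 genes that entered through 1 group alone, a choice made after seeing the data, these were 20 and 3 of 33, with the called counts unchanged at 15 and 1. The median log2 fold change of the 37 was -0.39, and that of all genes was -0.01. In LKO, 7 of the 37 were called lower, where 6.85% of all genes were, and 1 higher, where 5.88% of all genes were. By the adjusted p alone, 13 were lower, where 21.9% of all genes were, and 6 higher, where 19.6% of all genes were. The median of the 37 in LKO was -0.08 and that of all genes was -0.02. With the scanner's processed signal in place of the median signal, the medians of the 37 were -0.68 in LWT and -0.26 in LKO. The medians of all genes with that signal are not given here. The genes called in both genotypes were Ccnd1, Ccnd2, E2f1, Mcm5, Mcm6 and Rrm2, all lower, and E2f8, which was higher, though the calls of E2f1 in LWT and of Ccnd2 and Mcm5 in LKO were lost under some alternatives.

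**Figure D1:**
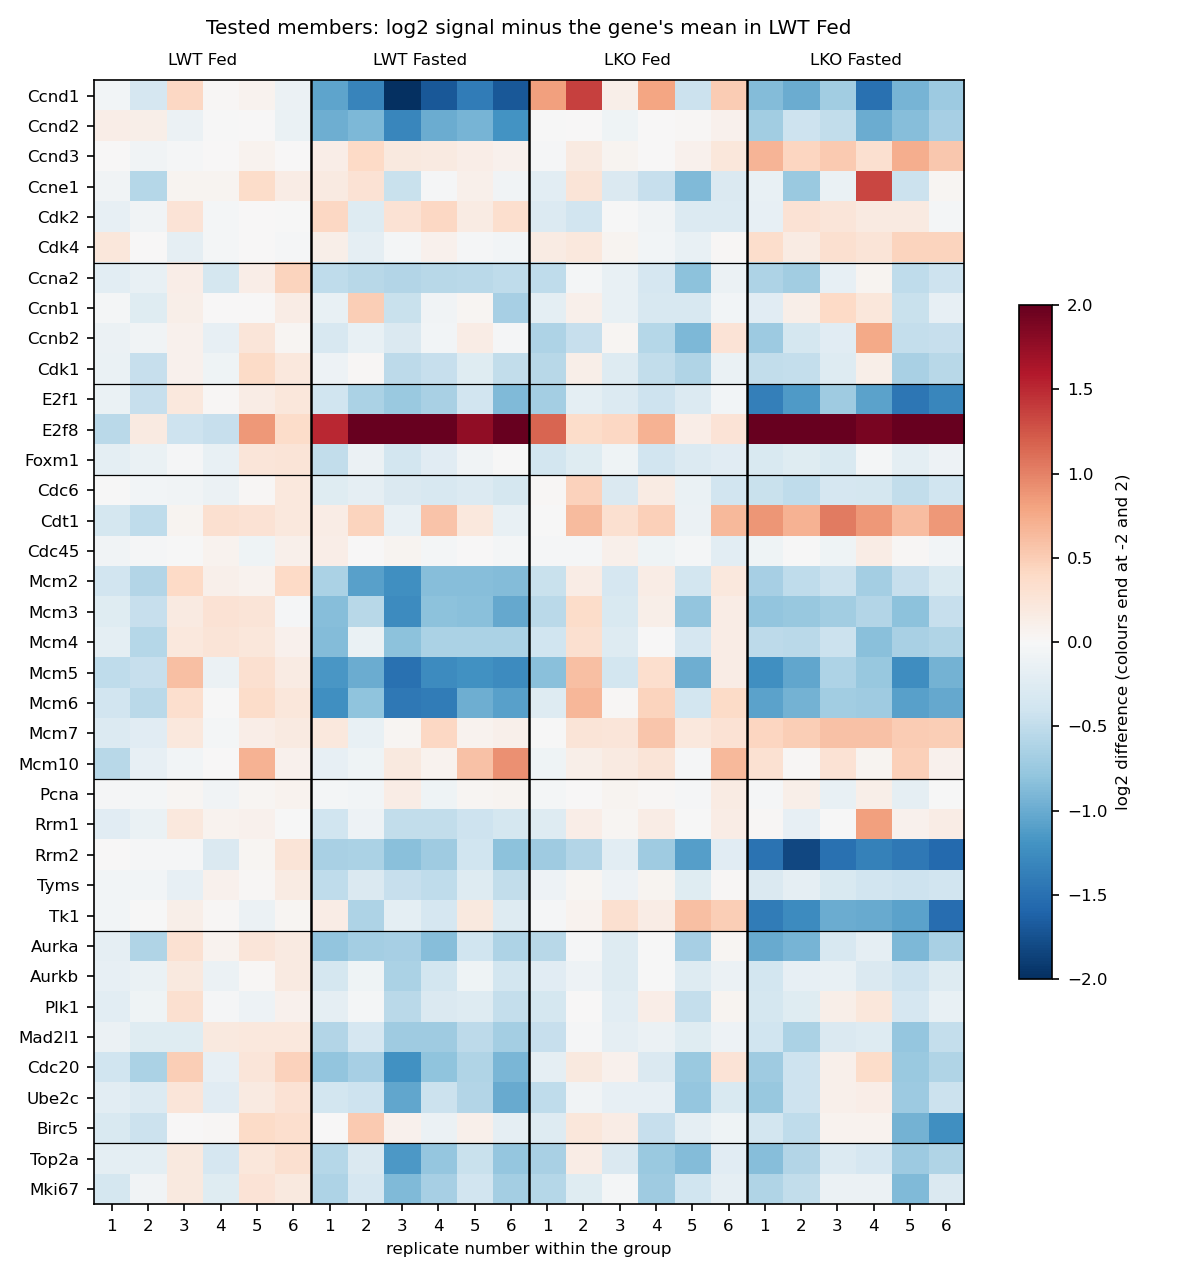
Heat map of the 37 tested genes (rows) in the 24 arrays (columns, by group and replicate number), with colour giving the log2 signal minus the mean of that gene in LWT_Fed. The row of E2f8 is high in both fasted groups, and the rows of Ccnd1, Ccnd2, Mcm5 and Mcm6 are low there, while Tk1 is lowest in LKO_Fasted.

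The D-type cyclins, which couple growth signals to G1 progression, moved in different directions. Ccnd1 (cyclin D1, probe at chr7:152116202-152116261 of mm9, minus strand) had a lowest, median and highest signal of 9.85, 10.17 and 10.60 in LWT_Fed and of 8.0, 8.64 and 9.13 in LWT_Fasted. In LKO_Fed the corresponding values were 9.76, 10.83 and 11.56, and in LKO_Fasted 8.69, 9.28 and 9.49. Fed and fasted arrays did not overlap in either genotype. Ccnd1 fell with fasting by 1.58 on the log2 scale in LWT (SE 0.201, adjusted p = 1.65e-06, limma), which is 3.0-fold, and by 1.40 in LKO (SE 0.224, adjusted p = 2.81e-05).

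Ccnd2 (cyclin D2) ranged from 10.81 to 11.08 in LWT_Fed, with a median of 10.96, and from 9.65 to 10.05 in LWT_Fasted, with a median of 9.97. The range was 10.86 to 11.04 in LKO_Fed (median 10.96) and 9.97 to 10.54 in LKO_Fasted (median 10.28). The fed ranges overlapped between the genotypes, and the fasted arrays lay below the fed ones in each. The fasting change was -1.10 in LWT (SE 0.0818, adjusted p = 8.6e-10, limma) and -0.65 in LKO (SE 0.091, adjusted p = 5.21e-06), and these differed by 0.44 (SE 0.122, adjusted p = 0.0293), under the fold minimum. For another Ccnd2 probe this difference was 0.61 (adjusted p = 0.0142) and called, and that probe was also lower in LKO_Fed than in LWT_Fed (-0.33, adjusted p = 0.0278), where the main probe gave -0.03 (adjusted p = 0.87). With the mean of all probes, the fasting change of Ccnd2 in LKO was -0.56 and not called. Ccnd3 (cyclin D3) went the other way. Its lowest, median and highest signals were 11.99, 12.07 and 12.14 in LWT_Fed, 12.15, 12.22 and 12.46 in LWT_Fasted, 12.04, 12.14 and 12.29 in LKO_Fed, and 12.39, 12.60 and 12.79 in LKO_Fasted. The fasted arrays lay above the fed ones in both genotypes, by 0.15 in LWT (SE 0.0588, adjusted p = 0.0472, limma) and by 0.49 in LKO (SE 0.0654, adjusted p = 2.5e-06), both under the fold minimum. Another Ccnd3 probe was called higher with fasting in LKO (0.64, adjusted p = 8.88e-06), and its interaction did not pass (0.27, adjusted p = 0.193). The last Ccnd3 probe did not pass with fasting in LWT (0.07, adjusted p = 0.456) and passed the interaction under the fold minimum (0.38, adjusted p = 0.0281). With the main probe, the genotypes differed in the fasting change by 0.35 (SE 0.088, adjusted p = 0.0191).

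Cdk4, the kinase partner of the D-type cyclins, was at 12.36 ± 0.13 in LWT_Fed, 12.34 ± 0.11 in LWT_Fasted, 12.40 ± 0.14 in LKO_Fed and 12.68 ± 0.11 in LKO_Fasted (n = 6 each). LKO_Fasted was 0.28 above LKO_Fed (SE 0.0741, adjusted p = 0.00388, limma) and 0.33 above LWT_Fasted (SE 0.0726, adjusted p = 0.00231), both under the fold minimum. The interaction of this Cdk4 probe did not pass (0.32, adjusted p = 0.0537), while 2 other Cdk4 probes passed it under the fold minimum (0.49, adjusted p = 0.015; 0.39, adjusted p = 0.019), and the latter of them was lower with fasting in LWT (-0.17, adjusted p = 0.0416). Cdk2, the S phase kinase, changed with fasting by 0.33 (adjusted p = 0.00527) in LWT and by 0.31 (adjusted p = 0.0157) in LKO, again under it. Ccne1 (cyclin E1) did not pass the test in any comparison.

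The transcription factors split as well. E2f8, an atypical E2F that represses E2F targets, was the gene of the 42 called higher with fasting. Its lowest, median and highest signals were 8.16, 8.59 and 9.57 in LWT_Fed and 10.21, 10.75 and 11.26 in LWT_Fasted. They were 8.84, 9.09 and 9.87 in LKO_Fed and 10.60, 11.42 and 11.67 in LKO_Fasted. Each fasted array lay above every fed array of its genotype. The rise was 2.00 in LWT (4.01-fold, SE 0.243, adjusted p = 8.62e-07, limma) and 2.15 in LKO (4.43-fold, SE 0.27, adjusted p = 1.27e-06), with a difference of 0.14 (SE 0.363, adjusted p = 0.856). Another E2f8 probe rose by 1.56 and 1.61, also called, while the last, dimmer one had estimates of 0.12 (adjusted p = 0.365) and 0.24 (adjusted p = 0.0978).

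E2f1, an activator of S phase genes, went down where E2f8 went up. It ranged from 7.51 to 8.21 in LWT_Fed (median 8.06) and from 7.10 to 7.60 in LWT_Fasted (median 7.34), which overlap. In LKO it ranged from 7.30 to 7.93 fed (median 7.71) and from 6.53 to 7.26 fasted (median 6.76), with no overlap. The change was -0.63 in LWT (SE 0.135, adjusted p = 0.000643, limma) and -0.80 in LKO (SE 0.15, adjusted p = 0.000165). The call in LWT was lost with normexp (-0.58) and without LWT_Fasted replicate 6 (-0.50). Foxm1, which drives mitotic genes, changed by -0.22 in LWT (adjusted p = 0.0294), under the fold minimum, and had an estimate of 0.07 in LKO.

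**Figure D2:**
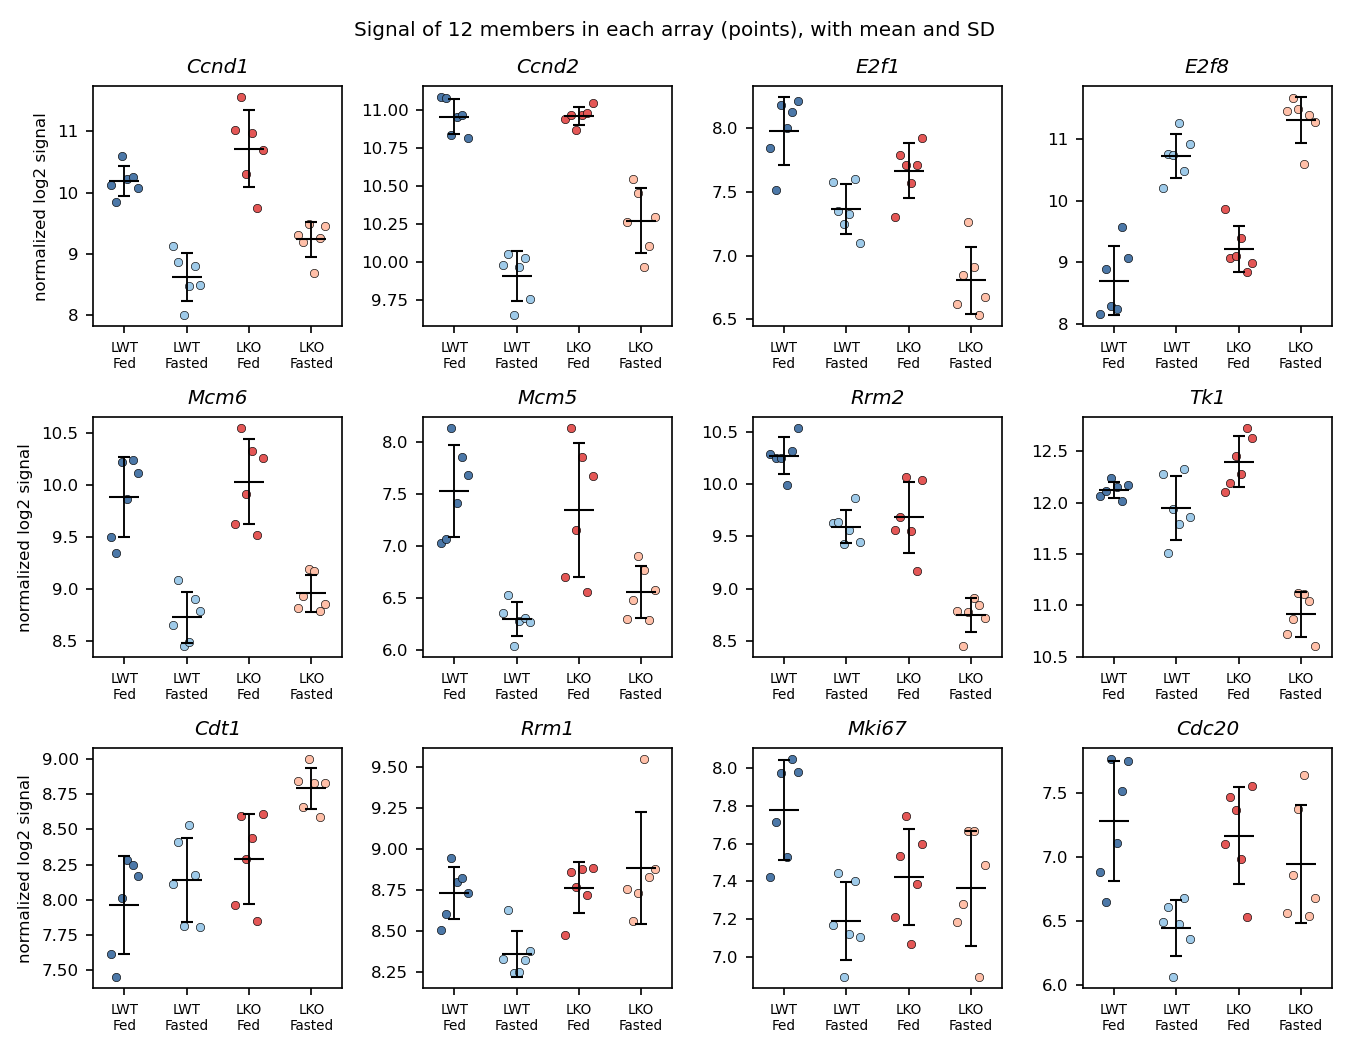
Normalized log2 signal (vertical axes) of 12 genes in each of the 24 arrays (points) by group, with the mean and SD of 6 mice. Ccnd1 falls and E2f8 rises with fasting in both genotypes, and the 6 LKO_Fasted points of Tk1, between 10.60 and 11.12, lie below all others.

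Of the 10 genes of origin licensing and the helicase, all tested, 5 were called lower in LWT, namely Mcm2, Mcm3, Mcm4, Mcm5 and Mcm6, and 2 in LKO, Mcm5 and Mcm6, beside 5.24% and 6.85% of all genes. Mcm7, Mcm10, Cdc45, Cdc6 and Cdt1 were not called with fasting. Mcm5 had a lowest, median and highest signal of 7.03, 7.55 and 8.13 in LWT_Fed and of 6.04, 6.30 and 6.53 in LWT_Fasted. In LKO the values were 6.55, 7.41 and 8.13 fed and 6.29, 6.53 and 6.91 fasted. The LWT groups did not overlap and the LKO groups did. Mcm5 fell by 1.21 in LWT (2.32-fold, SE 0.171, adjusted p = 6.59e-06, limma) and by 0.71 in LKO (SE 0.191, adjusted p = 0.00453). Without LKO_Fasted replicates 1 and 2, a choice made after seeing the data, the change in LKO was -0.56 and no longer called.

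Mcm6 ranged from 9.35 to 10.24 in LWT_Fed (median 9.99), 8.45 to 9.08 in LWT_Fasted (median 8.72), 9.52 to 10.54 in LKO_Fed (median 10.08) and 8.79 to 9.19 in LKO_Fasted (median 8.89). Fed and fasted arrays were apart in both genotypes. The fall was 2.27-fold in LWT (log2 change -1.18, SE 0.126, adjusted p = 1.57e-07, limma) and 2.02-fold in LKO (-1.02, SE 0.141, adjusted p = 4.54e-06). Of the other subunits, Mcm2 was at 7.25 ± 0.41 in LWT_Fed, 6.33 ± 0.21 in LWT_Fasted, 7.15 ± 0.31 in LKO_Fed and 6.75 ± 0.14 in LKO_Fasted (n = 6 each). Mcm3 was at 9.27 ± 0.30, 9.10 ± 0.45, 8.38 ± 0.24 and 8.59 ± 0.14 in LWT_Fed, LKO_Fed, LWT_Fasted and LKO_Fasted (n = 6 each). Mcm4 was at 9.48 ± 0.33, 9.40 ± 0.29, 8.86 ± 0.26 and 8.89 ± 0.14 in the same order (n = 6 each). The fed arrays lay above all fasted ones in LWT for Mcm2 and Mcm3, while for Mcm4 they overlapped.

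In LWT these 3 subunits changed by -0.87 for Mcm2 (SE 0.131, adjusted p = 1.5e-05), -0.96 for Mcm3 (SE 0.119, adjusted p = 1.15e-06) and -0.68 for Mcm4 (SE 0.105, adjusted p = 1.96e-05, limma). In LKO, Mcm3 (-0.46, adjusted p = 0.00756) and Mcm4 (-0.41, adjusted p = 0.00703) were lower under the fold minimum, and Mcm2 did not pass (-0.31, adjusted p = 0.0969). The differences between the genotypes, 0.56 for Mcm2 (SE 0.196, adjusted p = 0.0834), 0.50 for Mcm3 (SE 0.178, adjusted p = 0.0879) and 0.27 for Mcm4 (SE 0.157, adjusted p = 0.322), did not pass the test. Without LKO_Fasted replicates 1 and 2, a choice made after seeing the data, they were 0.69 for Mcm2 and 0.63 for Mcm3, and both were then called. Mcm7, of the same ring, was not lower, with an estimate of 0.17 (adjusted p = 0.133) in LWT, and 0.29 (adjusted p = 0.0225) in LKO mice.

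The loading factors of the helicase moved apart from each other. Cdc6 changed by -0.30 (adjusted p = 0.0152) in LWT, and -0.39 (adjusted p = 0.00607) was its change in LKO, under the fold minimum. Cdt1 ranged from 7.45 to 8.28 in LWT_Fed (median 8.09), 7.81 to 8.53 in LWT_Fasted (median 8.14), 7.85 to 8.61 in LKO_Fed (median 8.36) and 8.59 to 9.0 in LKO_Fasted (median 8.83). The LKO_Fasted arrays were all above those of LWT_Fasted and of LWT_Fed, and all other pairs of groups overlapped. Its fasting estimate was 0.10 in LWT (SE 0.13, adjusted p = 0.568, limma) and 0.56 in LKO (SE 0.145, adjusted p = 0.00332), under the fold minimum. The change in LKO was called with the processed signal (0.66) and without LKO_Fed replicate 2 or 6 or LKO_Fasted replicate 1, 2 or 6 (0.59 to 0.61). Cdc45 and the main probe of Mcm10, which act when the helicase starts, passed in no comparison. A dimmer Mcm10 probe was called higher in LKO_Fed than in LWT_Fed (0.84, adjusted p = 0.0497).

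Promoter sequences are shown for 3 helicase subunits called lower in LWT, for 2 mitotic genes called lower there and for E2f8, which rose. RefSeq windows from 250 bases before to 50 bases after the gene's start (GRCm38.p6) were found for 34 of the 42 genes, as 36 windows, and the genes without one were Foxm1, Ccne2, Mcm4, Ccnd2, Aurkb, Ccna2, Cdc25c and Ccnd1. Each motif was searched on both strands. The E2F letters TTTGGCGC, which read GCGCCAAA on the other strand, were in 4 of the 36 windows, those of Cdt1, Mcm3, Mcm5 and Mcm6, which is 11.1% against 0.514% of all 32851 windows. The E2F letters TTTCCCGC, which read GCGGGAAA on the other strand, were also in 4, those of Cdc6, Cdk2, Mcm3 and Mcm7, or 11.1% against 1.07% of all. The windows of 3 helicase subunits follow, 5′ to 3′ on the gene's strand, with the letters of any searched motif in capitals, including CCAAT and its reverse complement, which is written ATTGG.
Mcm3, chr1:20820263-20820562, minus strand: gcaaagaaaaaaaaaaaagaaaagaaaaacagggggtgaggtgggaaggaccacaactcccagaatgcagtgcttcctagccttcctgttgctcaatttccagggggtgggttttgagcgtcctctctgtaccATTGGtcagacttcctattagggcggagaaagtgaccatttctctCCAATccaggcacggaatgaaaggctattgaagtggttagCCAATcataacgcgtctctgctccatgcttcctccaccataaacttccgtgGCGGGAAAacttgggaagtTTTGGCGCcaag
Mcm5, chr8:75109259-75109558, plus strand: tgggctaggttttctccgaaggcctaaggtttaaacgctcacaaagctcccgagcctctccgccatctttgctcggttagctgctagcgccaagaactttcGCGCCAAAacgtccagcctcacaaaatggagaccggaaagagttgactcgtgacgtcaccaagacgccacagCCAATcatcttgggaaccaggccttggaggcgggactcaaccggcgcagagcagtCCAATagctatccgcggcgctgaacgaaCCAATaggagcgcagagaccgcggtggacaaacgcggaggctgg
Mcm6, chr1:128359656-128359955, minus strand: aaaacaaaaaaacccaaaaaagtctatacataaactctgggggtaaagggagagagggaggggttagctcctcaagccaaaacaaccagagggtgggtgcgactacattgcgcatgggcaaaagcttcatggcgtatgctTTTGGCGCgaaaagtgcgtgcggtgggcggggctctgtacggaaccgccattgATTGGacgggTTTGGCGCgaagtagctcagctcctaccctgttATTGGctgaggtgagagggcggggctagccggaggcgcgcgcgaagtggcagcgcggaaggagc
In Mcm3 both kinds of E2F letters lie after the start, in Mcm5 the match begins at base -149 relative to it, and Mcm6 has TTTGGCGC at 2 places, at bases -110 and -47. The window of Mcm2, also called lower in LWT, holds neither kind of E2F letters and is not shown.

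The letters TTTGAA, which read TTCAAA on the other strand, the core of the cell cycle genes homology region found in mitotic genes, were in 12 of the 36 windows, which is 33.3% against 17.9% of all windows. CCAAT, the NF-Y motif, was in 26, or 72.2% against 37.4% of all. The next windows are those of 2 mitotic genes called lower in LWT, Cdc20 and Ube2c, and of E2f8, which rose. In Ube2c a CCAAT match and one of the other strand overlap at 1 place.
Cdc20, chr4:118437294-118437593, minus strand: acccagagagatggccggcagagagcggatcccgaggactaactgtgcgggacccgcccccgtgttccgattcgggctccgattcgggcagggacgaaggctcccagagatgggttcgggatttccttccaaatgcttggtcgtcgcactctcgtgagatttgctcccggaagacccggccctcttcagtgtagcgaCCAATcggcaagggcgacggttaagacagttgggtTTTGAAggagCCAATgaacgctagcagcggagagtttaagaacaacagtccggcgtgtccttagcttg
Ube2c, chr2:164769679-164769978, plus strand: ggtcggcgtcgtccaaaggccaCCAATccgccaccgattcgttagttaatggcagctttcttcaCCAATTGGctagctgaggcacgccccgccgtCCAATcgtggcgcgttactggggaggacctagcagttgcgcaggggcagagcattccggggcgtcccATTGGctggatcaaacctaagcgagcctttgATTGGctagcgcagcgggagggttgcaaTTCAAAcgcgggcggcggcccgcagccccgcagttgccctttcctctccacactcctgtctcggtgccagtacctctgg
E2f8, chr7:48881547-48881846, minus strand: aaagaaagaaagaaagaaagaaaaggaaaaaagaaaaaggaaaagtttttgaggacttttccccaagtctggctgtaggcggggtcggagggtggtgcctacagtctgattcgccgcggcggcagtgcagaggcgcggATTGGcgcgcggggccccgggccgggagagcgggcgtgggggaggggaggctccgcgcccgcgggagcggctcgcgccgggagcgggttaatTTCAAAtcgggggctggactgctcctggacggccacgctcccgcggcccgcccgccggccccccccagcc
The TTTGAA match begins at base -18 relative to the start of Cdc20, at -29 for Ube2c and at -20 for E2f8. A match of letters is a description of the window, and these windows were not compared with any binding data.

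Enzymes of nucleotide supply differed from each other and, for Tk1, between the genotypes. Tk1 (thymidine kinase 1, probe at chr11:117677105-117677164 of mm9, minus strand), which phosphorylates thymidine in the salvage route, had a lowest, median and highest signal of 12.01, 12.13 and 12.24 in LWT_Fed and of 11.51, 11.90 and 12.32 in LWT_Fasted. In LKO it was 12.10, 12.36 and 12.72 fed and 10.60, 10.96 and 11.12 fasted. The LKO_Fasted arrays were all below those of the other 3 groups, which overlapped. Tk1 fell by 1.46 with fasting in LKO (2.76-fold, SE 0.129, adjusted p = 7.5e-09, limma) and had an estimate of -0.11 in LWT (SE 0.116, adjusted p = 0.464). The difference between these, -1.35 (2.55-fold, SE 0.174, adjusted p = 9.88e-05), was the 1 interaction called among the main probes of the 37 genes. The 2 other tested Tk1 probes gave -1.34 (adjusted p = 3.33e-05) and -1.19 (adjusted p = 0.000243) for the same difference.

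Rrm2, the regulated small subunit of ribonucleotide reductase, ranged from 9.99 to 10.54 in LWT_Fed (median 10.27), 9.43 to 9.86 in LWT_Fasted (median 9.59), 9.17 to 10.07 in LKO_Fed (median 9.63) and 8.45 to 8.91 in LKO_Fasted (median 8.78). The fed and fasted arrays were apart in both genotypes, and LKO_Fasted was the lowest group. Its fasting change was -0.69 in LWT (SE 0.12, adjusted p = 7.86e-05, limma) and -0.95 in LKO (SE 0.134, adjusted p = 5.64e-06). Rrm1, the large subunit of the same enzyme, was at 8.74 ± 0.16 in LWT_Fed, 8.36 ± 0.14 in LWT_Fasted, 8.77 ± 0.15 in LKO_Fed and 8.89 ± 0.34 in LKO_Fasted (n = 6 each). It changed by -0.39 in LWT (SE 0.0808, adjusted p = 0.00048), with an estimate of 0.09 in LKO (SE 0.0899, adjusted p = 0.482), a difference of 0.47 (SE 0.121, adjusted p = 0.0194) that is under the fold minimum. The subunits thus differed in the direction of their genotype difference in fasted mice.

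Tyms (thymidylate synthase), which makes thymidylate anew, had a signal of 10.37 ± 0.12 in LWT_Fed, 9.95 ± 0.11 in LWT_Fasted, 10.31 ± 0.11 in LKO_Fed and 10.04 ± 0.08 in LKO_Fasted (n = 6 each). Its probe gave a lower signal with fasting in both genotypes, under the fold minimum, by -0.47 in LWT (SE 0.0566, adjusted p = 8.62e-07, limma) and by -0.26 in LKO (SE 0.0629, adjusted p = 0.00212). The other tested Tyms probes disagreed, with one at -0.48 and -0.23 and the other at 0.05 (adjusted p = 0.647) in LWT and, in LKO, at 0.44 (adjusted p = 0.000284), so that the direction in LKO depends on the probe. Pcna, the sliding clamp of the replication fork, passed in no comparison.

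Of the 7 tested genes among the mitotic kinases, checkpoint and anaphase genes, 4 were called lower with fasting in LWT and none in LKO, beside 5.24% and 6.85% of all genes, and the difference between the genotypes passed for none of these 4 (adjusted p = 0.0501 for Mad2l1, 0.109 for Ube2c, 0.2 for Cdc20 and 0.505 for Aurka, limma). Cdc20, which activates the anaphase-promoting complex, was at 7.28 ± 0.47 in LWT_Fed, 6.44 ± 0.22 in LWT_Fasted, 7.17 ± 0.38 in LKO_Fed and 6.94 ± 0.46 in LKO_Fasted (n = 6 each). It changed by -0.81 in LWT (SE 0.175, adjusted p = 0.000714, limma), with an estimate of -0.25 in LKO (SE 0.195, adjusted p = 0.33). Fed and fasted arrays of LWT overlapped slightly, with a lowest fed value of 6.65 and a highest fasted one of 6.68.

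Ube2c, the ubiquitin-conjugating enzyme of the same complex, was at 7.31 ± 0.27 in LWT_Fed, 6.66 ± 0.30 in LWT_Fasted, 6.98 ± 0.27 in LKO_Fed and 6.96 ± 0.38 in LKO_Fasted (n = 6 each). It changed by -0.68 in LWT (SE 0.159, adjusted p = 0.00157, limma) and had an estimate of -0.05 in LKO (SE 0.177, adjusted p = 0.868). The call in LWT was lost with normexp (-0.56) and without LWT_Fasted replicate 3 (-0.57) or 6 (-0.50). Every LWT_Fed array was above every LWT_Fasted one. Mad2l1, a spindle checkpoint protein that binds Cdc20, was at 7.76 ± 0.23 in LWT_Fed, 7.17 ± 0.15 in LWT_Fasted, 7.57 ± 0.15 in LKO_Fed and 7.29 ± 0.20 in LKO_Fasted (n = 6 each). Its change was -0.69 in LWT (SE 0.0875, adjusted p = 1.67e-06, limma) and -0.26 in LKO (SE 0.0974, adjusted p = 0.0336), under the fold minimum. The LWT groups did not overlap, and with the mean of all probes the change in LWT was -0.57 and not called.

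Aurka, a kinase of the spindle poles, was at 7.88 ± 0.34 in LWT_Fed, 7.21 ± 0.16 in LWT_Fasted, 7.63 ± 0.31 in LKO_Fed and 7.21 ± 0.35 in LKO_Fasted (n = 6 each). Its change was -0.65 in LWT (SE 0.138, adjusted p = 0.000587, limma) and -0.40 in LKO (SE 0.154, adjusted p = 0.0399), under the fold minimum, while with the processed signal it was called in LKO too (-0.60). Aurkb, the related kinase of the centromere, changed by -0.31 in LWT (SE 0.0762, adjusted p = 0.00202), and was well above background on 6 arrays of LWT_Fed and on 2 of LWT_Fasted. With the processed signal the change of Aurkb was -1.20 and called, so its size depends on the signal used. Plk1 (Polo-like kinase 1) changed by -0.29 in LWT (adjusted p = 0.0244), under the fold minimum, with an estimate of 0.02 in LKO, and Birc5 (survivin) passed in no comparison.

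Top2a and Mki67, the genes of chromosome structure and of proliferating cells, were called lower with fasting in LWT, and the difference from LKO did not pass for either (adjusted p = 0.0834 and 0.103, limma). Top2a (topoisomerase IIα), which untangles sister chromatids, had a lowest, median and highest signal of 6.67, 7.01 and 7.34 in LWT_Fed, 5.86, 6.34 and 6.72 in LWT_Fasted, 6.15, 6.54 and 7.16 in LKO_Fed and 6.17, 6.42 and 6.74 in LKO_Fasted. Mki67, whose protein Ki-67 is the usual mark of cycling cells, had signals of 7.42, 7.85 and 8.05 in LWT_Fed, 6.89, 7.14 and 7.45 in LWT_Fasted, 7.07, 7.46 and 7.75 in LKO_Fed, and 6.89, 7.38 and 7.67 in LKO_Fasted. LWT_Fed was the highest group of both genes, and all groups overlapped. Top2a changed with fasting by -0.71 in LWT (SE 0.143, adjusted p = 0.000395, limma), with an estimate of -0.09 in LKO (SE 0.16, adjusted p = 0.683), and with the mean of all probes that in LWT was -0.56 and not called. Mki67 changed by -0.60 in LWT (SE 0.136, adjusted p = 0.00106), with an estimate of -0.05 in LKO (SE 0.151, adjusted p = 0.806), and its call in LWT was lost without the slide term, with normexp, with no filter and in 5 of the fits that left out 1 array (without LWT_Fed replicate 2, 5 or 6, or LWT_Fasted replicate 3 or 6).

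None of the tested cyclins of S and M phase was called. Ccna2 (cyclin A2) was at 7.31 ± 0.29 in LWT_Fed, 6.76 ± 0.03 in LWT_Fasted, 6.98 ± 0.30 in LKO_Fed and 6.92 ± 0.29 in LKO_Fasted (n = 6 each). It fell by 0.52 in LWT (SE 0.127, adjusted p = 0.0022, limma), just under the fold minimum, with an estimate of -0.08 in LKO (adjusted p = 0.69). Ccna2 in LWT was called with the processed signal (-0.70) and without LWT_Fed replicate 4 (-0.63). Cdk1, its mitotic kinase partner, changed by -0.39 in LWT (adjusted p = 0.014) and had an estimate of -0.07 in LKO. Ccnb1 and Ccnb2 (cyclins B1 and B2) belonged to the 7 tested genes with no comparison past the adjusted p, together with Ccne1, Cdc45, Mcm10, Pcna and Birc5. Fasting estimates of those 7 ran from -0.23 to 0.31 in LWT and from -0.39 to 0.18 in LKO.

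**Figure D3:**
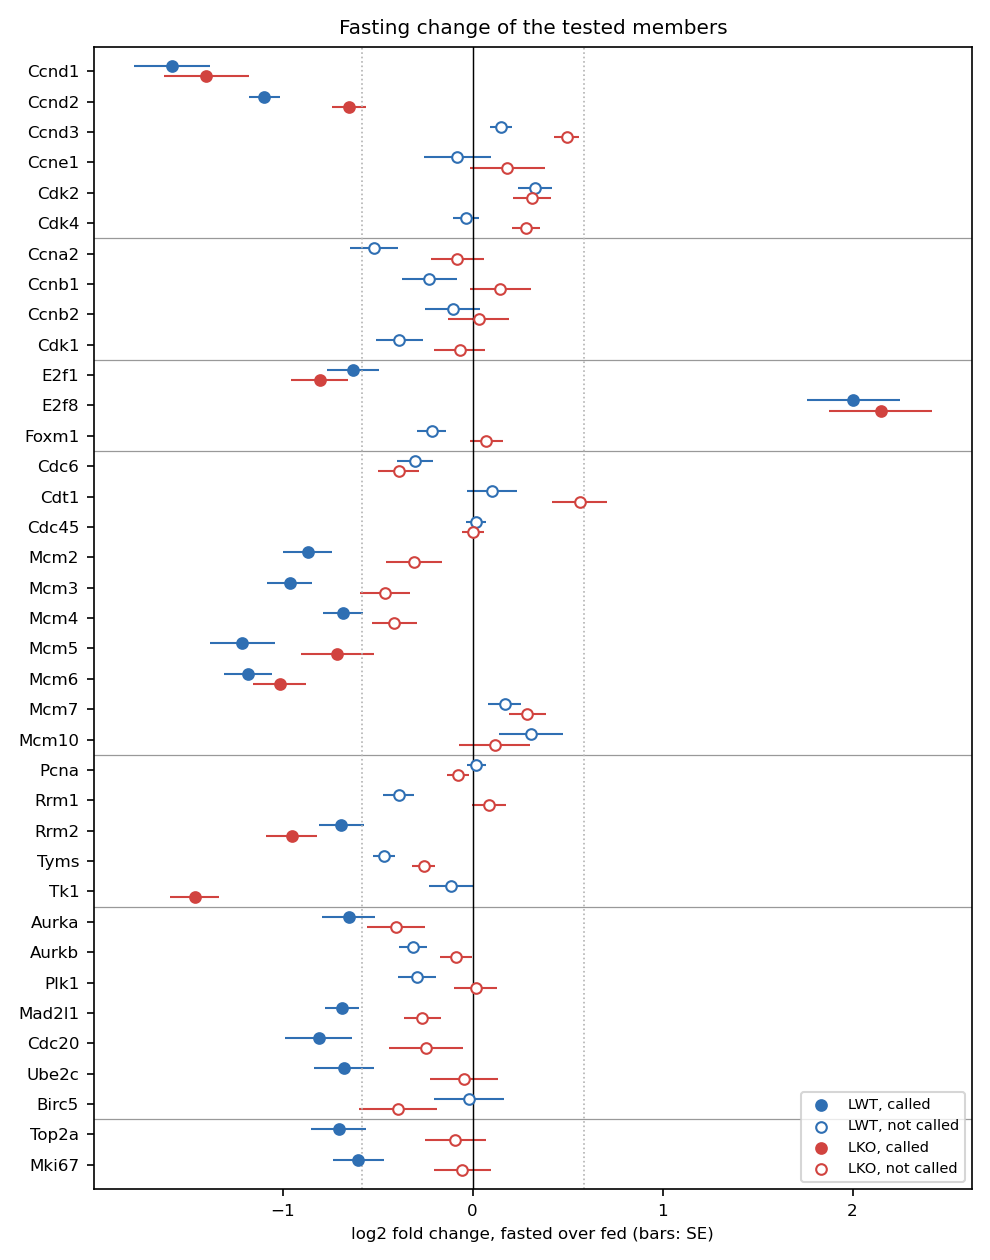
Log2 fold change, fasted over fed (horizontal axis, bars show the SE), of the 37 tested genes in LWT and in LKO, with filled points for called genes. Ccnd1, Mcm5 and Mcm6 lie furthest to the left in LWT and Tk1 and Ccnd1 in LKO, and E2f8 lies at 2.00 and 2.15.

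Between the genotypes in fed mice, none of the 37 was called higher or lower in LKO_Fed against LWT_Fed by limma, where 2.66% of all genes were called higher and 1.18% lower. Without the fold minimum Mcm7 was higher (0.28, adjusted p = 0.0395) and Rrm2 (-0.56, SE 0.124, adjusted p = 0.0035) and Foxm1 (-0.27, adjusted p = 0.0226) were lower, against 16.7% of all genes in either direction. Foxm1 entered the test through LWT_Fed alone and was well above background on 1 of 6 arrays of LKO_Fed, so its difference is not a measured level in LKO_Fed and rests on a choice that leans towards this direction. Rrm2, at 10.27 ± 0.17 in LWT_Fed and 9.68 ± 0.34 in LKO_Fed (n = 6 each), was at 1.48-fold, and was called lower with 75th percentile scaling (-0.61), the processed signal (-0.62) or no array weights (-0.59), and without LWT_Fed replicate 4 (-0.66), LKO_Fed replicate 3 (-0.66) or LKO_Fed replicate 6 (-0.62). Ccnd1 had an estimate of 0.58 (SE 0.206, adjusted p = 0.0585), with overlapping groups, and was called without LKO_Fed replicate 3 (0.72) or 5 (0.73). E2f8, with an estimate of 0.50 (SE 0.249, adjusted p = 0.183), was called higher without LWT_Fed replicate 5 (0.76). With replicate number as a block, Rrm2 (-0.588), Ccnd1 (0.691) and E2f8 (0.655) were all called. Over the 37 genes the median difference was -0.12, and over all genes it was -0.01.

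In fasted mice, Ccnd1 and Cdt1 were called higher in LKO, where 1.77% of all genes were, and Rrm2 and Tk1 lower, where 2.27% of all genes were. At the adjusted p alone, 8 were higher, where 10% of all genes were, and 3 lower, where 10.7% of all genes were. Tk1 differed by -1.08 (2.11-fold, SE 0.127, adjusted p = 5.48e-06, limma) and Rrm2 by -0.82 (1.77-fold, SE 0.131, adjusted p = 0.000152), and for both genes the 6 LKO_Fasted arrays lay below the 6 of LWT_Fasted. Cdt1 differed by 0.75 (1.68-fold, SE 0.142, adjusted p = 0.00069), with no overlap, and Ccnd1 by 0.76 (1.70-fold, SE 0.22, adjusted p = 0.0166), with overlap. The call of Ccnd1 was lost without LWT_Fasted replicate 3 (0.60) or replicate 6 (0.64), with no array weights (0.61) and with no filter on dim probes (0.71).

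Other genes passed the adjusted p in fasted mice under the fold minimum. Ccnd2 was higher in LKO_Fasted by 0.42 (SE 0.0893, adjusted p = 0.00202, limma), Ccnd3 by 0.41 (SE 0.0642, adjusted p = 0.000116), Rrm1 by 0.52 (SE 0.0882, adjusted p = 0.000288) and Mcm2 by 0.47 (SE 0.143, adjusted p = 0.0222). Mcm2 was called with the processed signal (0.79) and without LKO_Fasted replicates 1 and 2 (0.60), the latter a choice made after seeing the data. Rrm1 was called without LKO_Fasted replicate 2 (0.61). Mcm7 was higher by 0.40 (adjusted p = 0.00531). E2f1 was lower by 0.50 on the log2 scale, at -0.50 (SE 0.147, adjusted p = 0.0192), and was called with the processed signal (-0.71) and without LWT_Fasted replicate 6 (-0.63) or LKO_Fasted replicate 3 (-0.67). Cdc20 (0.53, adjusted p = 0.0567) was called without LWT_Fasted replicate 1 (0.60) or 5 (0.60) or LKO_Fasted replicate 1 (0.63), and E2f8 (0.65, adjusted p = 0.0923) without LWT_Fasted replicate 4 (0.77). The median difference of the 37 genes was 0.17 in fasted mice, and that of all genes was 0.00.

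**Figure D4:**
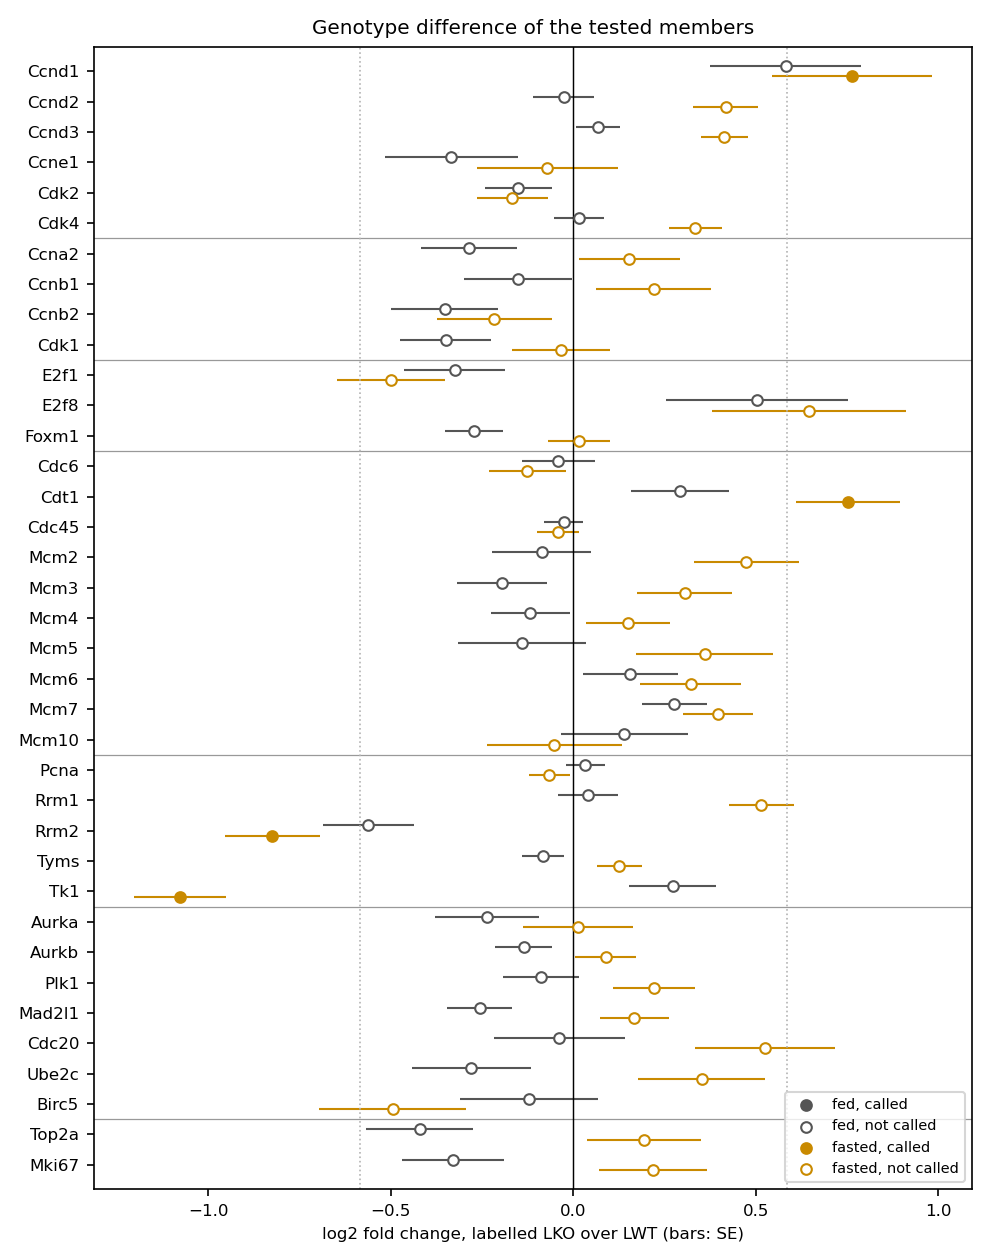
Log2 fold change, labelled LKO over LWT (horizontal axis, bars show the SE), of the 37 tested genes in fed and in fasted mice, with filled points for called genes. No gene is called in fed mice, and in fasted mice Ccnd1 and Cdt1 lie to the right and Rrm2 and Tk1 to the left.

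Whether the fasting change differed between the genotypes was tested by the interaction, the change in LKO minus that in LWT. Of the 37 genes, 1 was called, Tk1, where 3.13% of all genes were called in either direction. Without the fold minimum Ccnd2, Ccnd3 and Rrm1 had a positive interaction, as did 4.24% of all genes, and Tk1 a negative one, as did 3.92%. The comparisons share groups, so that a high or low group enters several of them. The estimate was above 0 for 28 of the 37, with a median of 0.27 against 0.00 over all genes, and the 37 share the same arrays and are not independent. For 9 genes the fasting change was called in LWT and not in LKO, namely Mcm2, Mcm3, Mcm4, Aurka, Mad2l1, Cdc20, Ube2c, Top2a and Mki67. The estimate in LKO was closer to 0 for all 9, which choosing genes called in LWT alone favours, and the difference itself passed in none. It was 0.42 for Mad2l1 (SE 0.131, adjusted p = 0.0501), 0.61 for Top2a (SE 0.215, adjusted p = 0.0834), 0.63 for Ube2c (SE 0.238, adjusted p = 0.109), 0.55 for Mki67 (SE 0.203, adjusted p = 0.103), 0.56 for Cdc20 (SE 0.262, adjusted p = 0.2) and 0.25 for Aurka (SE 0.207, adjusted p = 0.505, limma). Without LKO_Fasted replicates 1 and 2, 4 positive interactions were called, of Mcm2, Mcm3, Top2a (0.73) and Rrm1 (0.60). This alternative was added after seeing the data. The 2 arrays left out were above their group's median in 11 and 16 of the 37 genes, so leaving them out leans towards positive interactions. The interaction of Mcm2 was also called without LWT_Fasted replicate 1 (0.65) or LKO_Fasted replicate 1 (0.65), and that of Top2a without LWT_Fed replicate 4 (0.71).

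Individual mice of 1 group differed over many of these genes at once. Counted against the median of its own group, LWT_Fed replicate 5 was above it in 32 of the 37 genes and replicate 6 in 30, while replicate 1 was above it in 5 and replicate 2 in 3. In LKO_Fed, replicate 2 was above in 31 genes and replicate 6 in 29, and replicates 1 and 5 in 6 and 5. The 4 fed arrays that were low, LWT_Fed replicates 1 and 2 and LKO_Fed replicates 1 and 5, were those on slide 2. The fasted arrays on that slide were above their group's median in 8 to 30 genes. Each slide held 2 arrays of each group and the test included the slide. Within each of the 3 slides, all 29 called results of named genes had the same direction as over all arrays. The results were chosen as called over these same arrays, which favours the same direction. With 8 arrays a fit, 14, 20 and 10 of these calls were lost within slides 1, 2 and 3. Mcm5 with fasting in LKO was at -0.03 within slide 2 against -0.71 over all arrays, E2f1 in LWT at -0.27 there against -0.63, and Ccnd1 between the fasted genotypes at 0.27 within slide 1 against 0.76.

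**Figure D5:**
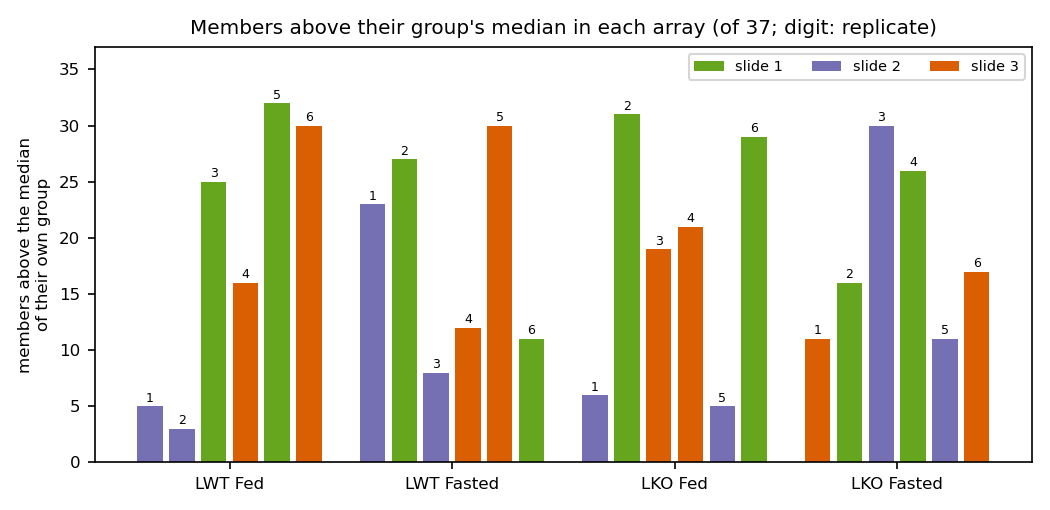
Number of the 37 tested genes whose signal lies above the median of the array's own group (vertical axis), for each of the 24 arrays by group, with the digit giving the replicate and the colour the slide. The 4 fed arrays on slide 2 are at 3 to 6, and the highest fed arrays are at 32 and 31.

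Markers of the liver's cell types were read on the same arrays, as 46 genes of which 43 were tested. The 6 hepatocyte markers had a summed log2 signal between 20.70 and 20.92 in all groups, with none called. It was 20.83 to 20.92 in LWT_Fasted and 20.70 to 20.83 in LKO_Fasted. By the adjusted p alone, Ttr was lower with fasting in both genotypes and in LKO both fed and fasted. Its means were 18.20 in LWT_Fed, 18.00 in LWT_Fasted, 17.98 in LKO_Fed and 17.60 in LKO_Fasted. Apoa1 was higher in LKO_Fed than in LWT_Fed. The 8 markers of Kupffer and myeloid cells (Clec4f, Adgre1, Cd68, Csf1r, Vsig4, Timd4, Marco and Cd5l) had none called either. Their median change with fasting was -0.43 in LWT and -0.03 in LKO, near the medians of the cell cycle genes, and their summed signal ran from 15.13 to 15.57 in LWT_Fed, 14.42 to 15.66 in LWT_Fasted, 14.76 to 15.53 in LKO_Fed and 14.35 to 16.44 in LKO_Fasted. Of them Cd68 alone passed the adjusted p (-0.52 in LWT, adjusted p = 0.0149, limma). The 6 tested markers of T, B and NK cells had medians of -0.32 and -0.10, with none called. The part of these cells in the results was not tested.

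Other cell type markers moved in ways of their own. Of 6 stellate markers, Lrat was called lower with fasting in both genotypes (-0.89 and -0.95, adjusted p = 0.000244 and 0.000385, limma), while Dcn was higher under the fold minimum (0.25 and 0.26, adjusted p = 0.0239 and 0.0408). Of 5 bile duct markers, Krt19 was called lower in both (-0.67 and -0.59, adjusted p = 0.00145 and 0.00941), while Sox9 was higher under the fold minimum (0.55 and 0.57, adjusted p = 0.00194 and 0.00352). Spp1, of bile duct cells, was lower in LKO, by -1.50 in fed mice (adjusted p = 0.000226) and by -2.11 in fasted mice (adjusted p = 4.88e-06). The summed signal of the 5 bile duct markers was 11.03 to 11.74 in LWT_Fed, 10.75 to 11.10 in LWT_Fasted, 9.61 to 10.84 in LKO_Fed and 8.99 to 10.20 in LKO_Fasted. The endothelial and stellate lists otherwise held 1 more call, of Lyve1 in fed mice (-0.88, adjusted p = 0.0386), and the 3 tested erythroid markers, with an interaction median of 0.80, had 1 gene called, Alas2, lower in LKO fed (-0.80, adjusted p = 0.00155) and fasted (-0.83, adjusted p = 0.00129). No tested neutrophil marker was called.

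Further genes of the pathway were read from lists of 100 genes, of which 90 were tested. With fasting in LWT, 13 were called lower and 5 higher, beside 5.24% and 4.81% of all genes, and in LKO 9 lower and 7 higher, beside 6.85% and 5.88%. The higher counts are near those shares. The 28 tested genes of DNA replication held 7 of the lower calls in LWT and 5 in LKO, beside 5.24% and 6.85% of all genes, and none higher. Among them was Fen1, the flap endonuclease that processes Okazaki fragments, at 9.36 ± 0.25 in LWT_Fed, 8.15 ± 0.13 in LWT_Fasted, 9.31 ± 0.19 in LKO_Fed and 8.20 ± 0.14 in LKO_Fasted (n = 6 each). It fell by 1.31 in LWT (adjusted p = 6.84e-10, limma) and by 1.11 in LKO (adjusted p = 3.09e-08). Rpa1, which coats single-stranded DNA, changed by -0.66 and -0.67, called in both. Pold1, the catalytic subunit of DNA polymerase δ, was called in LWT (-0.78, adjusted p = 1.03e-08) and changed by -0.36 in LKO, under the fold minimum. Rfc5, of the clamp loader, changed by -0.66 and -1.09, called in both.

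Of the 15 RB, E2F and DREAM genes, 2 were called lower and 1 higher in each genotype, few genes beside shares of all genes of 5.24% and 4.81% in LWT and 6.85% and 5.88% in LKO. E2f2, another activating E2F, was at 8.38 ± 0.14 in LWT_Fed, 6.78 ± 0.37 in LWT_Fasted, 8.02 ± 0.39 in LKO_Fed and 6.88 ± 0.25 in LKO_Fasted (n = 6 each), a change of -1.68 in LWT and -1.17 in LKO. Rbl1 (p107), a pocket protein that binds E2F, changed by -0.87 and -0.78. Tfdp2, a partner of E2F factors, rose by 0.67 and 0.65. E2f6, a repressor that acts without pocket proteins, was called higher in LKO_Fasted than in LWT_Fasted by 0.79 (adjusted p = 8.6e-07, limma), with values of 10.35 to 10.83 against 9.62 to 10.17, and had an interaction of 0.71 (adjusted p = 0.000505).

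Inhibitors of the cycle were led by Cdkn1a (p21), which blocks cyclin-dependent kinases. Its lowest, median and highest signals were 8.09, 8.96 and 10.01 in LWT_Fed, 11.44, 12.08 and 12.74 in LWT_Fasted, 7.31, 8.11 and 8.54 in LKO_Fed, and 10.21, 10.97 and 11.81 in LKO_Fasted. Fed and fasted arrays were far apart in both genotypes. It rose by 3.26 in LWT (SE 0.312, adjusted p = 3.21e-08, limma) and by 2.96 in LKO (SE 0.347, adjusted p = 4.7e-07), and was lower in LKO_Fasted than in LWT_Fasted (-1.14, SE 0.34, adjusted p = 0.0204, with overlap). Of the other 7 tested inhibitors and checkpoint kinases none was called in any comparison. Ccng2 (cyclin G2), linked to cell cycle arrest, rose by 1.45 and 1.53.

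In the mitosis and spindle list, 21 of 28 genes were tested, and 4 were called lower and 1 higher in LWT and 2 lower and 2 higher in LKO. Of all genes 5.24% and 4.81% were so called in LWT and 6.85% and 5.88% in LKO. Spc24 and Spc25, partners in the Ndc80 complex of the kinetochore, moved in opposite directions. Spc24 changed by -1.0 in LWT and -0.79 in LKO, while Spc25 rose by 0.62 in LWT and by 1.37 in LKO, with an interaction of 0.75 (adjusted p = 0.039, limma). Both were lower in LKO_Fed than in LWT_Fed, Spc24 by 0.63 (-0.63, adjusted p = 0.00109) and Spc25 by 0.62 (-0.62, adjusted p = 0.00701). Cks1b, a subunit bound to cyclin-dependent kinases, changed by -1.19 in LWT and -1.07 in LKO. Hmmr, a spindle protein, changed by -0.90 in LWT and had an estimate of -0.51 in LKO (adjusted p = 0.064). Nek2, a centrosome kinase, was called higher in LKO (0.94, adjusted p = 1.02e-07) and changed by 0.54 in LWT, under the fold minimum. Of the 18 other cyclins and cyclin-dependent kinases, 2 were called higher with fasting in LWT and 3 in LKO, beside 4.81% and 5.88% of all genes, and none lower. Besides Ccng2 these were Ccnl1 (cyclin L1; 0.60 in LWT and 0.67 in LKO, adjusted p = 1.25e-06 and 9.93e-07, limma) and, in LKO, Cdk12, a kinase of transcription (0.68, adjusted p = 1.04e-05).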

How the data were processed

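Livers of 24 mice were each hybridised by the authors to a 1-colour Agilent mouse array, and the scans were read with Agilent Feature Extraction 10.10.1.1, as named in the submitters' processing notes. The deposited scanner tables hold intensity per spot, before any scaling between arrays, and the median signal was used. The deposited matrix of log2 values, made by the authors after a filter and quantile normalization, served as an alternative. Probe positions refer to mm9, per the file headers.

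From the median signal, control spots and outlier spots were left out (90 probe values missing). Probes well above background on at least 5 of 6 arrays of 1 group were kept (32197 of 56605). Log2 values were quantile normalized and fitted with limma 3.58.1 in R 4.3.3, with group means, the slide as a term (the washing bath that the methods correct for is not in the labels) and array weights. The 5 comparisons were adjusted over all probes with the Benjamini-Hochberg method, and called genes have an adjusted p of at most 0.05 and a fold change above 1.5. SE is that of the fit, so a fold change may depart from the difference of the plain means. The fit was tested on simulated data. No per-sample column was left unused.

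The 42 genes, the pathway lists and the marker lists were chosen with earlier results of these data known. Genes are named with their values if called in at least 1 comparison (18 genes), with the next 6 by adjusted p added up to 24. From the pathway lists, called genes were named, at most the 3 with the smallest adjusted p per list and comparison. Alternatives covered scaling (75th percentile), the processed signal, normexp background correction, the authors' matrix, the slide term, replicate number as a block, array weights, the groups fitted, the filter, the fold minimum, the mean of all probes of a gene and leaving out single arrays. Promoter windows are from RefSeq (GRCm38.p6). The number of arrays limits the precision.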

Additional observations from a re-analysis of the deposited data

Results flagged for a closer look

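Among 148 sets of 6 arrays (37 genes in 4 groups), 9 held an array far from the other 5 by Dixon's criterion, which chance alone meets in about 1 set in 20. All 9 were replicate 4 of LKO_Fasted or replicate 2 of LWT_Fasted. In LKO_Fasted, replicate 4 was lowest for Ccnd1, at 8.69 with the next array at 9.20 (gap over range 0.637), and for E2f8, at 10.60 with the next at 11.28 (0.641). The same array was highest for Ccne1 (8.85, next 7.56, 0.626), for Ccnb2 (8.77, next 7.79, 0.658) and for Rrm1 (9.55, next 8.88, 0.678). In LWT_Fasted, replicate 2 was highest for Ccnd3 (12.46, next 12.26, 0.645), for Mcm4 (9.35, next 8.85, 0.675) and for Rrm1 (8.63, next 8.38, 0.643). It was lowest for Cdk2 (7.55, next 7.97, 0.627).

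The fasting change differed between the genotypes, by limma's test of the interaction, for 4 genes: Tk1 (-1.35), Rrm1 (0.47), Ccnd2 (0.44) and Ccnd3 (0.35). The last 3 were under the fold minimum.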

How the results depend on the processing

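No called result of a named gene reversed under any alternative. Of 29 called results, 29 were kept with 75th percentile scaling, the processed signal, the authors' matrix and the replicate block. Normexp kept 26 (E2f1, Ube2c and Mki67 in LWT were lost), the mean of all probes kept 26 (Ccnd2 in LKO, and Mad2l1 and Top2a in LWT, were lost) and no filter kept 27 (Ccnd1 between fasted genotypes and Mki67 in LWT were lost). Mki67 in LWT was also lost without the slide term and with the slide as a random block, and Ccnd1 in fasted mice without array weights (0.61). Leaving out single arrays kept 686 of 696. The losses were Ccnd1 between fasted genotypes, E2f1 in LWT without LWT_Fasted replicate 6 (-0.50), Ube2c in LWT without LWT_Fasted replicate 3 (-0.57) or 6 (-0.50), and Mki67 in LWT without LWT_Fed replicate 2, 5 or 6 or LWT_Fasted replicate 3 or 6 (-0.52 to -0.57). Within slides 1, 2 and 3, where a fit has 8 arrays, 15, 9 and 19 of the 29 calls were kept, with no change of direction. The cause was not tested.

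Counts of the 37 genes moved as follows. Apart from dropping the fold minimum, shares and medians of all genes under an alternative are not given, here or for the pathway lists below. A setting that calls more genes in all is thus not told apart from a stronger change of these genes. Without the fold minimum, fasting in LWT gave 3 higher and 23 lower, in LKO 6 and 13, genotype in fed mice 1 and 2, genotype in fasted mice 8 higher, and the interaction 3 higher. The processed signal gave 19 lower with fasting in LWT, 2 higher and 9 lower in LKO, 2 lower in LKO_Fed and 3 higher and 3 lower in LKO_Fasted, and the members' median with fasting became -0.68 in LWT and -0.26 in LKO. In fed mice, 75th percentile scaling gave 1 lower, no array weights 1 lower, and the replicate block 2 higher (Ccnd1 and E2f8) and 1 lower (Rrm2). In fasted mice, no array weights and no filter each gave 1 higher. Without LKO_Fasted replicates 1 and 2, an alternative added after seeing the data, 2 were higher with fasting in LKO, 5 were higher in LKO_Fasted and 4 had a positive interaction. Leaving out 1 array at a time gave, with fasting, 1 to 1 higher and 12 to 16 lower in LWT and 1 to 2 higher and 7 to 8 lower in LKO. It gave 0 to 1 higher and 0 to 1 lower in fed mice, 1 to 3 higher and 2 to 4 lower in fasted mice, and 0 to 1 higher and 1 to 1 lower for the interaction.

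Of the 90 pathway list genes, 18 were called with fasting in LWT, 16 in LKO, 2 in fed mice, 2 in fasted mice and 2 for the interaction, beside 10, 12.7, 3.85, 4.04 and 3.13% of all genes. Without the fold minimum these became 58, 43, 15, 16 and 7, beside 42, 41.5, 16.7, 20.7 and 8.15% of all genes. The processed signal gave 28 in LWT and 4 in fed mice, and normexp 1 in fed mice. In fasted mice, fitting the compared groups alone, the mean of all probes and leaving out LKO_Fasted replicates 1 and 2 each gave 1. For the interaction, no slide term, the random slide, no array weights, no filter and the mean of all probes each gave 1. Single arrays left out gave 15 to 20, 15 to 19, 1 to 2, 1 to 3 and 1 to 4. Pik3ca in fed mice passed the fold minimum with no array weights (0.623), with no filter (0.595) and within slide 2 (0.915), passed with no fold minimum (0.577), and ran from 0.514 to 0.646 with single arrays left out.

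Same-numbered arrays of different groups did not deviate together (median correlation -0.031, from -0.179 to 0.275), and 2 of 24 arrays correlated best with an array of their own number. No pairing of the mice by number was thus visible. The replicate block lost none of the 29 calls. Dim probes limit Ccnb1, Cdk1, Foxm1, Cdc45, Aurkb and Top2a, which were not well above background on every array.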
